A study of Mus musculus with 18 samples.

Results

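The response of wild-type mouse lung to 4 days of low oxygen was measured on 6 bead arrays, 3 from mice kept in 10% oxygen and 3 from mice kept in room air. These are all lung arrays with the wild-type label, 6 of the 18 arrays of the series, and no measured value was used to choose them. The series as a whole asked how interleukin-4 (IL-4) bears on the response of the lung circulation to hypoxia, and it also holds 6 lung arrays of mice without the Il4 gene and 6 arrays of cultured lung microvascular endothelial cells. The cultured cells are not analysed here. WT hypoxia means male wild-type C57BL/6 mice, 8 to 12 weeks old, housed for 4 days in a chamber held at 10% oxygen, and WT normoxia means mice of the same strain, sex and age housed for the same time in a chamber open to room air. KO hypoxia and KO normoxia are the same conditions in Il4 knockout mice, with 3 arrays each, and serve only for a closing comparison. Each array carried the total lung RNA of 1 animal. Whole lungs were extracted, so a lower transcript level may come from fewer cells of a type or from less RNA per cell, and these cannot be told apart.

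Low alveolar oxygen constricts the small arteries of the lung, and when it lasts, the vessel walls thicken. Smooth muscle, fibroblasts and endothelial cells divide, matrix is laid down, and leukocytes gather around the vessels. Inside cells, hypoxia-inducible factors (HIF), which prolyl hydroxylases mark for destruction while oxygen is plentiful, switch on genes of glycolysis, of vessel growth and of red cell formation.

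Between 60.18% and 63.33% of the 25697 probes were detected on a WT array, and the median raw signal lay between 126.26 and 151.57. All values below are normalized log2 signals, given in the order of arrays 1, 2 and 3 of a group, and a change is the log2 difference of WT hypoxia minus WT normoxia with its standard error (SE). Correlations between the log2 values of arrays, taken across probes, were 0.9824 to 0.9909 within the WT groups and 0.968 to 0.979 between them. The leading principal component, which held 53.93% of the variance, placed the hypoxia arrays at -29.14, -27.47 and -24.06 and the normoxia arrays at 34.57, 32.43 and 13.66. WT normoxia 3 therefore lay nearer to the hypoxia arrays than the other 2 normoxia arrays did, and it also stood apart on the second component, at -29.83. Lung identity was plain on all 6 arrays: Sftpc, the surfactant protein of alveolar type 2 cells, read 15.52, 15.37 and 15.64 in WT hypoxia, against 15.47, 15.58 and 15.56 in WT normoxia. Scgb1a1, the secretoglobin of club cells, read 15.64, 15.49 and 15.50 in WT hypoxia, against 15.56, 15.49 and 15.57 in WT normoxia. Ager, the receptor that marks alveolar type 1 cells, read 14.92, 15.01 and 14.73 in WT hypoxia, against 14.95, 14.89 and 14.95 in WT normoxia. None of these 3 passed the test, and neither did Pecam1, the adhesion molecule of endothelium, at 12.24, 12.27 and 11.79 in WT hypoxia, against 12.25, 12.11 and 12.28 in WT normoxia.

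Of 16251 probes tested, 1069 were higher under hypoxia (6.58%) and 701 were lower (4.31%), 10.9% together, at an adjusted p under 0.05. Taken as genes, each read by its brightest tested probe, 832 of 11034 rose (7.54%) and 460 fell (4.17%), which makes 11.7% called. The rises were also the larger changes: 281 genes rose at least 2-fold and 80 fell at least 2-fold, and 49 rose at least 4-fold against 6 that fell that far. Among the called genes the median size of change was 0.752 log2 units, and the median over all genes tested was 0.0. The 2 groups did not overlap for 1281 of the 1292 called genes, and for 3274 of all 11034 genes tested (29.67%). A gene named below as risen or fallen kept its call under every alternative run, each of the 6 WT arrays left out in turn included, unless a loss is stated beside it. Some probes were detected on part of a group only, so that their changes rest partly on signals near background: Ptx3, Thbs2, Ccl2, Cxcl5 and Muc5ac were detected on 1 of the 3 normoxia arrays, and Agr2, Cdk1, Cxcl9, Fsip1, Gpr176, Gxylt2, Mcm7, Prss35 and Sfrp4 on 2 of them. A gene given by its values alone passed the test unless it is said not to have. Many counts of called list members were highest without WT normoxia 3, and the range on leaving out 1 WT array is given where a count of 4 or more moved by more than 1.5 times. Counts under 4 that have no range beside them moved by at most 2 genes.

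**Figure D1:**
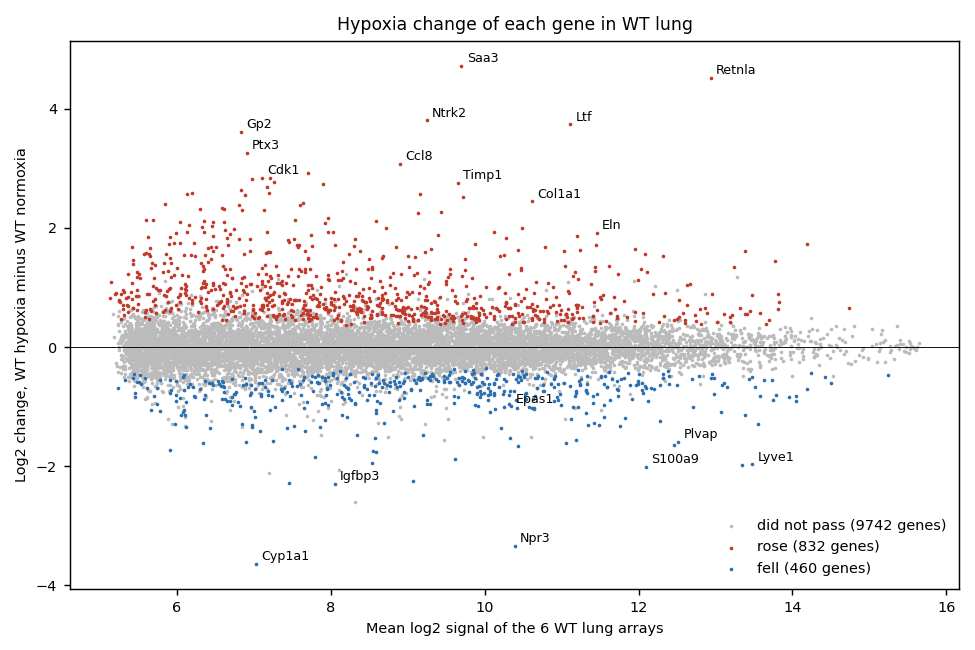
Each point is 1 of the 11034 genes tested, with the mean normalized log2 signal over the 6 WT arrays across and the log2 change of WT hypoxia minus WT normoxia up the page. Red points are the 832 genes that rose, blue points the 460 that fell and grey points the rest, and the rises reach further from 0 than the falls.

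Retnla, the secreted resistin-like molecule also known as hypoxia-induced mitogenic factor, read 15.55, 15.40 and 14.64 in WT hypoxia, against 10.81, 10.88 and 10.34 in WT normoxia. The groups lay more than 3 log2 units apart, and the change was 4.52 ± 0.25 (SE), adjusted p = 1.79e-06. Saa3, an acute phase apolipoprotein made in tissues, read 13.26, 12.88 and 10.03 in WT hypoxia, against 7.86, 7.71 and 6.43 in WT normoxia. It rose on every hypoxia array, but WT hypoxia 3 lay well below the other 2, and the change was 4.73 ± 0.83 (SE), adjusted p = 0.00303. Ptx3, a soluble pattern recognition protein that binds complement, read 8.81, 8.73 and 8.08 in WT hypoxia, against 5.08, 5.72 and 5.02 in WT normoxia, a change of 3.27 ± 0.23 (SE), adjusted p = 3.28e-06.

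Ntrk2, which binds brain-derived neurotrophic factor at the cell surface, read 11.11, 11.02 and 11.32 in WT hypoxia, against 6.69, 7.46 and 7.87 in WT normoxia. All 3 hypoxia arrays sat close together and the normoxia arrays were spread over more than 1 log2 unit beneath them, and the change was 3.81 ± 0.26 (SE), adjusted p = 3.28e-06. Its ligand Bdnf read 9.61, 9.69 and 9.65 in WT hypoxia, against 9.94, 10.00 and 10.17 in WT normoxia, and its small change of -0.39 ± 0.11 (SE), adjusted p = 0.0442, was a call lost without WT hypoxia 1, 2 or 3 or WT normoxia 1, 2 or 3 and in 3 other settings (adjusted p up to 0.192). Gxylt2, which extends sugars on the repeats of Notch receptors, read 8.94, 9.07 and 9.49 in WT hypoxia, against 5.51, 6.45 and 6.77 in WT normoxia. Gpr176, a receptor with no settled ligand, read 8.29, 7.87 and 8.28 in WT hypoxia, against 5.41, 5.51 and 5.64 in WT normoxia. Prss35, a secreted relative of the serine proteases, rose by 2.85 ± 0.29 (SE), adjusted p = 4.53e-05.

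Gp2, a membrane glycoprotein that binds bacteria on the surface of specialised epithelium, was detected on all 3 hypoxia arrays and on none of the normoxia arrays, at 7.05, 9.29 and 9.56 in WT hypoxia, against 5.01, 4.97 and 5.08 in WT normoxia. It was at least 9.11-fold higher under hypoxia, with a wide spread, and its call (adjusted p = 0.0171) was lost without WT hypoxia 2 or 3 or WT normoxia 1 or 2 and with trended and robust spread (adjusted p up to 0.0678). Agr2, a disulfide isomerase that mucus-making cells need, read 7.96, 8.82 and 8.38 in WT hypoxia, against 5.28, 5.69 and 5.71 in WT normoxia. Muc5ac, an airway mucin, read 6.13, 6.26 and 5.79 in WT hypoxia, against 5.51, 5.42 and 5.15 in WT normoxia, but its change of 0.70 ± 0.16 (SE), adjusted p = 0.0151, was lost without WT hypoxia 1 or 2 and with the authors' log2 table (adjusted p up to 0.0792).

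**Figure D2:**
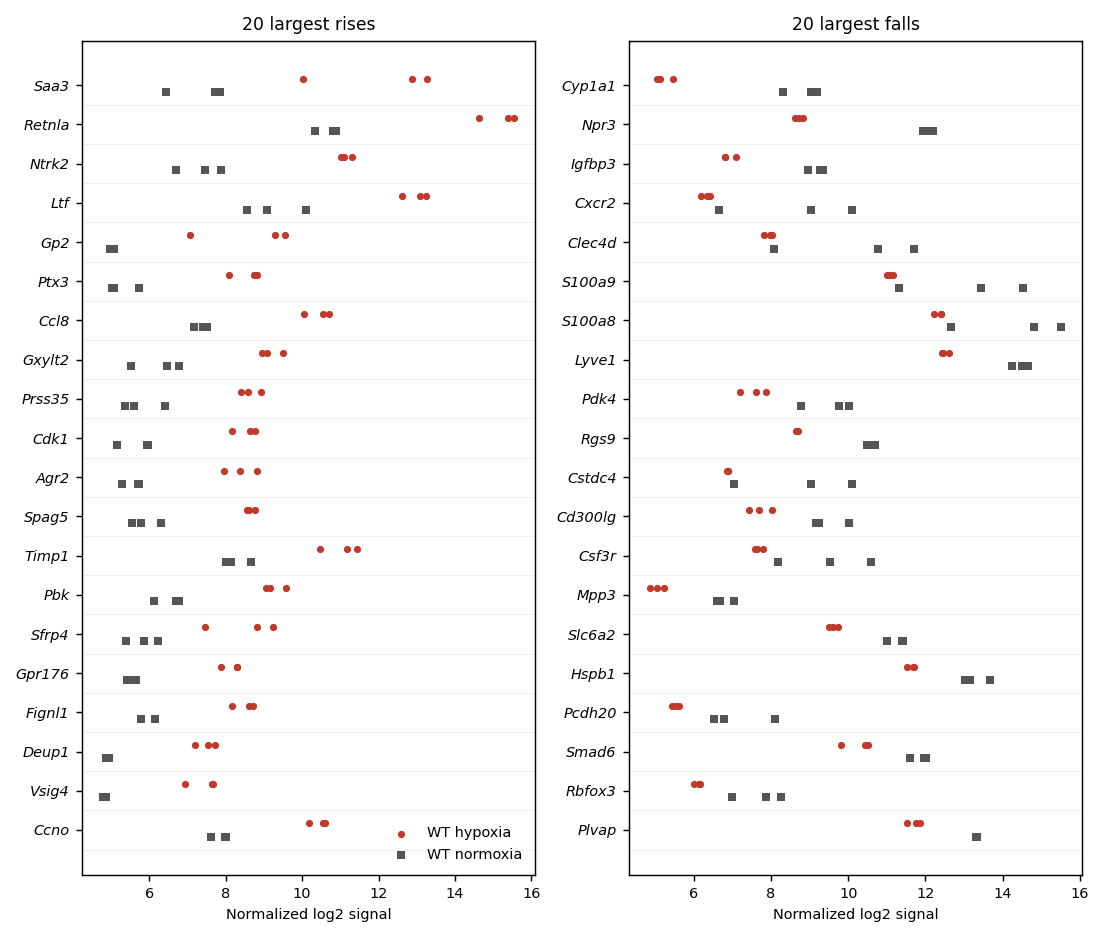
Normalized log2 signal of the 20 genes with the largest rises and the 20 with the largest falls, among genes that passed the test without overlap of the groups. Red circles are the 3 WT hypoxia arrays and grey squares the 3 WT normoxia arrays. The red points lie above the grey ones in the rises and under them in the falls, and in several falls 1 grey point lies beside the red ones, as in Cxcr2, S100a8, Clec4d and S100a9, all of whose calls were lost in several settings.

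Cyp1a1, the enzyme that the aryl hydrocarbon receptor induces, read 5.13, 5.45 and 5.04 in WT hypoxia, against 9.02, 8.31 and 9.20 in WT normoxia. It was detected on 1 of the 3 hypoxia arrays and on all 3 normoxia arrays, and its change of -3.64 ± 0.20 (SE), adjusted p = 1.79e-06, rests on hypoxia signals near background. Npr3, the receptor that clears natriuretic peptides, read 8.83, 8.61 and 8.73 in WT hypoxia, against 12.20, 12.04 and 11.94 in WT normoxia, a gap of more than 3 log2 units on every pair of arrays and a change of -3.34 ± 0.26 (SE), adjusted p = 8.62e-06. Igfbp3, which carries insulin-like growth factors in blood and tissue, read 6.81, 6.80 and 7.09 in WT hypoxia, against 9.26, 9.36 and 8.97 in WT normoxia, with a change of -2.29 ± 0.15 (SE), adjusted p = 3.17e-06. Rgs9, which shortens signalling through G proteins, read 8.71, 8.67 and 8.64 in WT hypoxia, against 10.68, 10.49 and 10.48 in WT normoxia, close together within each group, with a change of -1.88 ± 0.13 (SE), adjusted p = 3.28e-06.

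Other large falls were those of Pdk4, the kinase that closes off pyruvate dehydrogenase, with a change of -1.95 ± 0.35 (SE), adjusted p = 0.00363, and of Cd300lg, a sialomucin of capillary and venular endothelium, with -1.76 ± 0.25 (SE), adjusted p = 0.000683. Mpp3, a membrane scaffold protein, was detected on no hypoxia array and on all 3 normoxia arrays and was at least 2.67-fold lower under hypoxia. Slc6a2, the noradrenaline transporter, which lung endothelium carries, read 9.61, 9.50 and 9.72 in WT hypoxia, against 11.39, 11.41 and 11.00 in WT normoxia. Cstdc4, of the stefin family of protease inhibitors, whose copies are alike enough that a probe may read several, read 6.88, 6.86 and 6.87 in WT hypoxia, against 10.09, 9.03 and 7.03 in WT normoxia. WT normoxia 3 lay beside the hypoxia arrays here, and the call was lost without WT hypoxia 1, 2 or 3 or WT normoxia 1 or 2 and in 4 other settings (adjusted p up to 0.146).

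Genes of cell division rose together. Of 46 measured mitosis genes 38 rose and 0 fell, with a median change of 1.59, and of 38 measured genes of DNA replication and S phase 25 rose and 0 fell, with a median of 0.82. Over all genes 7.54% rose and the median was 0.0. Cdk1, the kinase that drives entry into mitosis, read 8.76, 8.64 and 8.17 in WT hypoxia, against 5.96, 5.95 and 5.15 in WT normoxia. Its partner Ccna2, cyclin A2, read 9.10, 8.58 and 8.87 in WT hypoxia, against 6.50, 6.21 and 6.57 in WT normoxia. Both had every hypoxia array more than 2 log2 units above every normoxia array, with changes of 2.84 ± 0.21 (SE), adjusted p = 5.89e-06, for Cdk1 and 2.42 ± 0.19 (SE), adjusted p = 8.98e-06, for Ccna2. A dimmer second probe of Cdk1 changed by -0.23 and did not pass.

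The risen mitosis genes came from several steps of division. Aspm, which focuses the poles of the spindle, read 8.15, 7.56 and 8.29 in WT hypoxia, against 5.67, 5.61 and 5.81 in WT normoxia. Tpx2, which nucleates its microtubules, rose by 2.30 ± 0.28 (SE), adjusted p = 0.000212. Stil and Plk4 build new centrioles: Stil was detected on no normoxia array and was at least 2.47-fold higher under hypoxia, and Plk4 changed by 1.62 ± 0.17 (SE), adjusted p = 6.5e-05. Kif2c, a kinesin that shortens microtubules at the kinetochore, was at least 3.11-fold higher. Cdc20 and Ube2c, which turn the ubiquitin ligase of anaphase onto its targets, changed by 2.11 and 1.93, and Prc1, which bundles the midzone that separating cells share, by 2.26. Pbk, a kinase of dividing cells, read 9.58, 9.06 and 9.16 in WT hypoxia, against 6.71, 6.76 and 6.11 in WT normoxia, Spag5, a spindle protein also called astrin that is not in the list, rose by 2.78, and Foxm1, the transcription factor that switches on many genes of mitosis, rose by 1.06 ± 0.17 (SE), adjusted p = 0.00141. The second probe of Spag5 changed by 0.09 and did not pass.

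Replication genes rose by less. Tk1, thymidine kinase, read 8.48, 7.88 and 8.10 in WT hypoxia, against 5.67, 5.49 and 5.65 in WT normoxia. Uhrf1, which carries DNA methylation over to the new strand, read 10.50, 9.87 and 10.40 in WT hypoxia, against 7.71, 8.11 and 8.22 in WT normoxia. The groups were apart in both. Of the helicase subunits that open the DNA, Mcm5 rose by 1.52 ± 0.15 (SE), adjusted p = 4.53e-05, Mcm2 by 1.50 ± 0.17 (SE), adjusted p = 0.00013, Mcm6 by 1.02 and Mcm7 by 1.00. A dimmer probe of Mcm6 changed by 0.295 and did not pass. Pcna, the clamp that holds polymerases on DNA, changed by 0.33 (adjusted p = 0.143) and did not pass. E2f1, a transcription factor of S phase entry, rose by 0.89 ± 0.15 (SE), adjusted p = 0.00182, and Fignl1, which works in repair by recombination, read 8.71, 8.15 and 8.62 in WT hypoxia, against 5.77, 6.15 and 5.78 in WT normoxia.

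Of 21 measured inhibitors of cyclin-dependent kinases and other antiproliferative genes, 2 rose and 3 fell, and on leaving out 1 WT array these counts ran from 0 to 3 and from 1 to 6. Klf9, a transcription factor that holds back division, read 13.54, 13.65 and 13.73 in WT hypoxia, against 14.59, 14.42 and 14.38 in WT normoxia, lower on every hypoxia array. Cdkn1a, the inhibitor p21, read 10.64, 10.45 and 10.47 in WT hypoxia, against 12.48, 11.86 and 10.85 in WT normoxia, with WT normoxia 3 close to the hypoxia arrays. Its change of -1.21 ± 0.30 (SE), adjusted p = 0.0223, was a call lost without WT hypoxia 1, 2 or 3 or WT normoxia 1 or 2 and with the 6 WT arrays fitted alone (adjusted p up to 0.078). A dimmer probe of Cdkn1a changed by -1.29 and did not pass.

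The 150 bases before the start of transcription are shown for the 4 risen genes of the mitosis list of largest change that had a promoter entry, from RefSeq on build GRCm38.p6, since the deposited files name no build. Capitals mark CCAAT, the box that the factor NF-Y binds, which reads ATTGG where it lies on the other strand, and TTTGAA, the core of the cell cycle homology region through which many such genes are held silent outside division.
Cdk1, chr10:69352913-69353062, minus strand: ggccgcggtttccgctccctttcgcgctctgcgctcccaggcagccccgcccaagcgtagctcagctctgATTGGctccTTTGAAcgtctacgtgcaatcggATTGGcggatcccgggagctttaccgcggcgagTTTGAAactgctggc
Aspm, chr1:139454623-139454772, plus strand: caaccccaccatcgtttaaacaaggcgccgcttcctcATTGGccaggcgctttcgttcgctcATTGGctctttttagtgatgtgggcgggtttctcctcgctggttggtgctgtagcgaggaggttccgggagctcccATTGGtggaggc
Prc1, chr7:80294301-80294450, plus strand: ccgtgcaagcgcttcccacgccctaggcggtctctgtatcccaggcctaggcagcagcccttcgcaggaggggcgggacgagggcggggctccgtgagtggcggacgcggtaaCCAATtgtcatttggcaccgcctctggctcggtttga
Stil, chr4:114999968-115000117, plus strand: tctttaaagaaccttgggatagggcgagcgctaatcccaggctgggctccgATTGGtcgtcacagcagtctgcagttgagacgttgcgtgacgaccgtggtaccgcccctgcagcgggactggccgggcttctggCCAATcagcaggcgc
Cdk1 had CCAAT on the other strand 80 and 48 bases before the start and TTTGAA at 71 and 15 bases. Aspm had 3 CCAAT boxes on the other strand, Prc1 had 1 and Stil had 1 on each strand.

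These letters were then counted in windows from 250 bases before to 50 bases after each start, on both strands, with 1 or more windows per gene. Entries were found for 8935 of the 11034 genes tested and for 32 of the 38 risen mitosis genes. CCAAT was in 31 of 42 windows of the mitosis list, risen or not (73.8%), and in 29 of 36 windows of its risen genes (80.6%). Over all tested genes it was in 4274 of 11452 windows (37.3%). TTTGAA was in 28 of the 42 (66.7%) and in 26 of the 36 (72.2%), against 12.2% of all windows. GCGGGAA, a form of the site that E2F factors bind, was in 16 of 41 windows of the replication genes (39.0%) and in 10 of 30 windows of those that rose (33.3%), against 7.4% of all. Taken over all genes that rose, the shares were 39.2% for CCAAT, 17.2% for TTTGAA and 10.0% for GCGGGAA, and over all that fell they were 38.5%, 11.3% and 6.6%. ACGTG, the core of the hypoxia response element, was in 21.2% of windows of the genes that rose, in 22.0% of those that fell and in 24.3% of all. Such a match is a description of the letters and not a binding site.

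**Figure D3:**
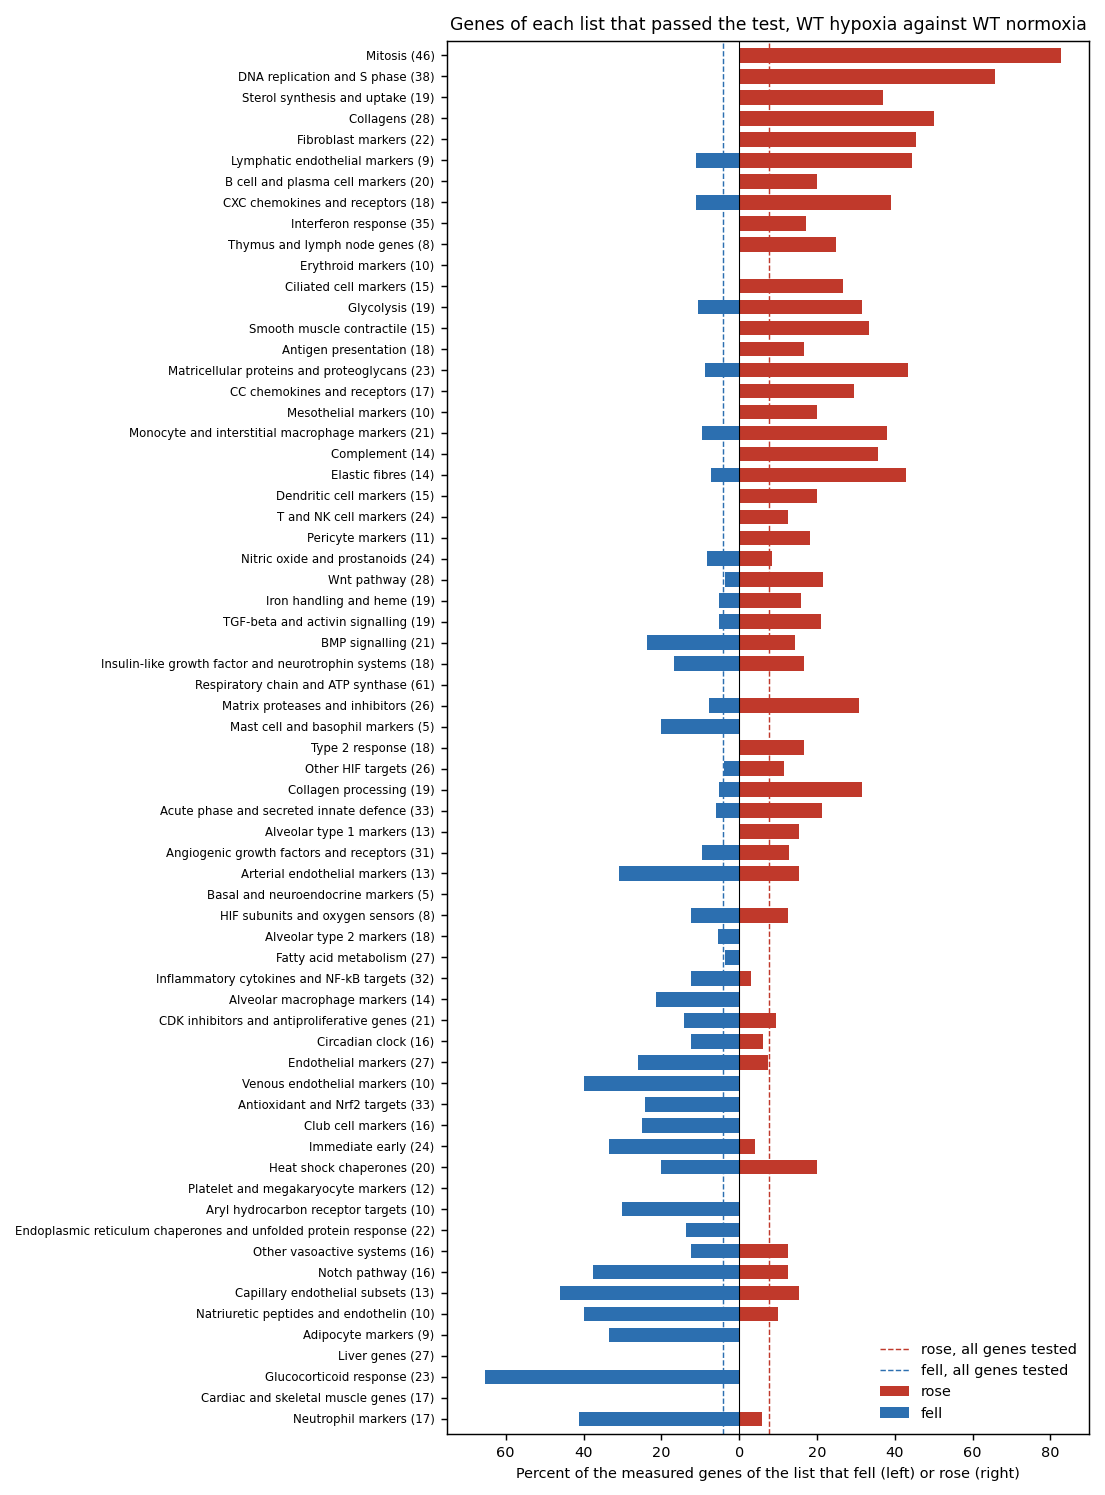
Share of the measured genes of each list that rose (bars to the right) or fell (bars to the left) in WT hypoxia against WT normoxia, in percent, with lists ordered by their median change. Dashed lines mark the shares over all genes tested, 7.54% risen and 4.17% fallen. Mitosis, with 38 of 46 genes, reaches furthest to the right, and the glucocorticoid response, with 15 of 23 genes, reaches furthest to the left.

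Matrix genes formed the next large block of rises. Of 28 measured collagen genes 14 rose and 0 fell, with a median change of 0.51. Col1a1, a chain of the fibrillar collagen of scars, read 12.06, 12.04 and 11.43 in WT hypoxia, against 9.39, 9.36 and 9.44 in WT normoxia. Col3a1, its partner in distensible tissue, read 15.05, 14.81 and 15.31 in WT hypoxia, against 13.09, 13.11 and 13.80 in WT normoxia. Col5a1, which seeds fibrils, read 11.06, 10.89 and 10.92 in WT hypoxia, against 9.23, 9.49 and 9.59 in WT normoxia, so that all 3 genes had every hypoxia array above every normoxia array. The changes were 2.45 ± 0.16 (SE), adjusted p = 3.17e-06, for Col1a1, 1.72 ± 0.19 (SE), adjusted p = 9.01e-05, for Col3a1 and 1.52 ± 0.14 (SE), adjusted p = 2.48e-05, for Col5a1. Col15a1 and Col18a1, collagens of the basement membrane zone, rose by 1.59 ± 0.20 (SE), adjusted p = 0.000217, and by 1.19 ± 0.12 (SE), adjusted p = 4.04e-05. Col4a1, the main chain of the basement membrane, changed by 0.60 ± 0.13 (SE), adjusted p = 0.0122, and its call was lost without WT hypoxia 1 (adjusted p up to 0.0588).

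Of 14 measured genes of elastic fibres 6 rose and 1 fell. Eln, elastin itself, read 12.43, 12.42 and 12.41 in WT hypoxia, against 10.45, 10.72 and 10.32 in WT normoxia, a change of 1.92 ± 0.13 (SE), adjusted p = 3.28e-06, with its 3 hypoxia arrays close together. Mfap5 and Mfap4, proteins of the microfibril, read 10.93, 11.11 and 11.01 in WT hypoxia, against 9.48, 9.47 and 9.46 in WT normoxia for Mfap5 and rose by 1.34 ± 0.22 (SE), adjusted p = 0.00166, for Mfap4. Loxl1, which cross-links elastin, read 13.28, 13.07 and 13.25 in WT hypoxia, against 11.79, 12.20 and 12.42 in WT normoxia, whereas Lox, the founding member of that enzyme family, read 11.63, 11.54 and 10.99 in WT hypoxia, against 11.64, 11.51 and 10.88 in WT normoxia and did not pass. Of 19 genes of collagen processing 6 rose and 1 fell (3 to 7 risen on leaving out 1 WT array), led by Loxl1, Loxl2 at 0.93 ± 0.19 (SE), adjusted p = 0.00693, and Pcolce, which helps to cut procollagen, at 0.81 ± 0.12 (SE), adjusted p = 0.000788.

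Among matricellular proteins and proteoglycans 10 of 23 rose and 2 fell. Thbs2, thrombospondin 2, an inhibitor of vessel growth, read 7.66, 7.19 and 7.51 in WT hypoxia, against 4.64, 5.31 and 5.45 in WT normoxia. Tnc, tenascin C, which appears in remodelling vessel walls, read 9.31, 8.94 and 8.75 in WT hypoxia, against 7.00, 7.13 and 7.06 in WT normoxia. Ccn4, a secreted target of Wnt signalling, read 9.23, 9.07 and 8.83 in WT hypoxia, against 6.42, 7.02 and 7.20 in WT normoxia, and the groups overlapped for none of these 3. Their changes were 2.32 ± 0.22 (SE), adjusted p = 2.63e-05, for Thbs2, 1.94 ± 0.20 (SE), adjusted p = 4.8e-05, for Tnc and 2.17 ± 0.19 (SE), adjusted p = 1.89e-05, for Ccn4. Ccn1 went the other way and read 9.59, 9.34 and 9.65 in WT hypoxia, against 11.12, 10.94 and 10.62 in WT normoxia. A dimmer probe of Ccn1 changed by -1.07 and did not pass. Ccn2, connective tissue growth factor, changed by -0.27 and did not pass (adjusted p = 0.194). Of 26 matrix proteases and inhibitors 8 rose and 2 fell (5 to 7 and 0 to 4 on leaving out 1 WT array). Timp1, the inhibitor of metalloproteinases, read 11.44, 11.18 and 10.46 in WT hypoxia, against 8.13, 8.67 and 8.01 in WT normoxia, and the proteases Mmp14, Mmp2 and Ctsk rose by 1.26, 1.15 and 1.33.

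Contractile and mesenchymal genes held further rises. Of 15 contractile genes of smooth muscle 5 rose and 0 fell, with a median of 0.29. Acta2, smooth muscle actin, read 14.24, 14.14 and 14.25 in WT hypoxia, against 13.29, 13.45 and 13.61 in WT normoxia. A dimmer probe of Acta2 changed by 0.59 and did not pass. Tpm2, a tropomyosin, read 11.32, 11.42 and 11.35 in WT hypoxia, against 10.41, 9.98 and 10.48 in WT normoxia. Tagln, an actin-binding protein, rose by 0.89 ± 0.18 (SE), adjusted p = 0.00792. Of 22 fibroblast markers 10 rose and 0 fell, among them the matrix genes Col1a1, Col1a2, Col3a1, Mfap4 and Mfap5, and of 11 pericyte markers 2 rose. Higd1b, a marker of lung pericytes, read 10.14, 10.42 and 10.07 in WT hypoxia, against 8.98, 9.05 and 8.67 in WT normoxia, yet Pdgfrb, the receptor that defines them, changed by 0.14 and did not pass.

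Of 8 measured HIF subunits and oxygen sensors 1 rose and 1 fell, against 7.54% and 4.17% of all genes. Epas1, which encodes HIF-2α, read 9.89, 10.00 and 9.63 in WT hypoxia, against 10.87, 10.84 and 10.79 in WT normoxia and changed by -0.995 (SE 0.12, adjusted p = 0.000229). Hif1a read 8.01, 7.19 and 8.02 in WT hypoxia, against 7.83, 7.89 and 7.56 in WT normoxia, with the groups overlapping, and did not pass (adjusted p = 0.973). Egln3, an oxygen-sensing hydroxylase that HIF induces, read 6.59, 6.66 and 6.82 in WT hypoxia, against 6.06, 6.17 and 5.51 in WT normoxia, and its rise of 0.78 ± 0.19 (SE), adjusted p = 0.0189, was a call lost without WT hypoxia 2 or 3 (adjusted p up to 0.063). Of 26 further HIF targets 3 rose and 1 fell (1 to 3 risen on leaving out 1 WT array), against 7.54% and 4.17% of all genes. Vegfa, the main vessel growth factor, read 14.15, 14.32 and 14.28 in WT hypoxia, against 14.24, 14.56 and 14.37 in WT normoxia, Car9, a carbonic anhydrase of hypoxic cells, read 5.97, 6.08 and 6.28 in WT hypoxia, against 6.08, 5.98 and 6.15 in WT normoxia, and neither passed.

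Of 19 glycolysis genes 6 rose and 2 fell, with a median of 0.29 and 0 to 2 fallen on leaving out 1 WT array. Gapdh rose by 0.56 ± 0.10 (SE), adjusted p = 0.00386, Pfkl, phosphofructokinase of liver type, by 0.74 ± 0.12 (SE), adjusted p = 0.00179, and Tpi1, triosephosphate isomerase, by 0.52 ± 0.10 (SE), adjusted p = 0.00586. Each of these changes is below 1 log2 unit, and dimmer second probes of Pfkl and Tpi1 changed by 0.07 and 0.11. Slc2a1, the glucose transporter GLUT1, read 9.34, 9.14 and 9.05 in WT hypoxia, against 9.52, 9.37 and 9.30 in WT normoxia and did not pass. ACGTG was in 15 of 29 promoter windows of the glycolysis list (51.7%) and in 3 of 8 windows of its risen genes (37.5%), against 24.3% of all. Of 61 subunits of the respiratory chain and ATP synthase, 0 rose and 0 fell under limma, with a median of 0.06, and 1 rose on leaving out WT normoxia 3.

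Of 19 genes of sterol synthesis and uptake 7 rose and 0 fell, with a median of 0.53. Hmgcs1, which makes the precursor that the pathway starts from, read 13.36, 13.34 and 13.46 in WT hypoxia, against 12.79, 12.90 and 12.81 in WT normoxia. Fdps, farnesyl diphosphate synthase, read 11.39, 11.69 and 11.74 in WT hypoxia, against 11.01, 10.92 and 10.85 in WT normoxia. Stard4, a carrier of cholesterol, rose by 0.73 ± 0.16 (SE), adjusted p = 0.00997. Of 27 genes of fatty acid metabolism only Lpl, the lipase of capillary walls, passed: it read 12.61, 12.77 and 13.04 in WT hypoxia, against 14.34, 13.91 and 13.60 in WT normoxia. Adipocyte markers averaged -0.84, -0.05 and -0.08 on the WT hypoxia arrays, against 0.30, 0.12 and 0.55 on the WT normoxia arrays, relative to each gene's WT mean. Both Lpl and this list were lowest on WT hypoxia 1. The list was highest on WT normoxia 3, where Lpl was the lowest of the 3 normoxia arrays. The part of adipocyte transcripts in the fall of Lpl was not tested.

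In the natriuretic peptide and endothelin systems 4 of 10 measured genes fell and 1 rose (2 to 3 and 0 to 1 on leaving out 1 WT array). Npr3 has been described, and the signalling receptor Npr1 read 6.02, 6.28 and 5.92 in WT hypoxia, against 6.50, 6.70 and 6.52 in WT normoxia and did not pass. Ece1, the enzyme that makes active endothelin, read 11.22, 11.16 and 10.82 in WT hypoxia, against 11.85, 11.94 and 11.78 in WT normoxia, lower on every hypoxia array. Edn1, the peptide itself, read 11.06, 11.09 and 10.30 in WT hypoxia, against 11.77, 11.77 and 11.13 in WT normoxia, and its change of -0.74 ± 0.22 (SE), adjusted p = 0.0454, was a call lost without WT hypoxia 1 or 3 or WT normoxia 1 or 2 and in 3 other settings (adjusted p up to 0.159). Nppa, the atrial peptide, read 5.21, 8.10 and 7.76 in WT hypoxia, against 10.01, 8.17 and 10.67 in WT normoxia and did not pass (adjusted p = 0.198). A list of 17 heart and skeletal muscle genes was set beside it, relative to each gene's WT mean. The list averaged -1.11, -0.62 and 0.34 on the WT hypoxia arrays, against 0.51, 0.19 and 0.68 on the WT normoxia arrays. Both Nppa and the list were lowest on WT hypoxia 1 and highest on WT normoxia 3. WT hypoxia 3 lay above WT hypoxia 2 in the list and below it in Nppa. The part of such tissue was not tested.

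Among other vasoactive genes Hpgd, which breaks down prostaglandins, read 12.71, 12.88 and 13.11 in WT hypoxia, against 14.35, 14.25 and 13.995 in WT normoxia. Ptger3, a prostaglandin E receptor, read 7.36, 7.10 and 7.45 in WT hypoxia, against 5.80, 6.00 and 6.61 in WT normoxia, and the groups of both were apart. Slc6a4, the serotonin transporter, read 5.87, 5.87 and 5.70 in WT hypoxia, against 6.65, 6.75 and 6.50 in WT normoxia and changed by -0.82 ± 0.17 (SE), adjusted p = 0.00958. Nos3, the nitric oxide synthase of endothelium, read 8.60, 8.53 and 8.17 in WT hypoxia, against 8.07, 8.59 and 8.32 in WT normoxia and did not pass. Apln, the apelin peptide, read 8.89, 9.32 and 9.39 in WT hypoxia, against 8.38, 8.36 and 8.98 in WT normoxia, with overlapping groups, and its call (adjusted p = 0.0394) was lost without WT hypoxia 2 or 3 or WT normoxia 1 or 2 and in 3 other settings (adjusted p up to 0.149). Of 24 genes of nitric oxide and prostanoid signalling 2 rose and 2 fell, against 7.54% and 4.17% of all genes.

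In bone morphogenetic protein (BMP) signalling, where inherited loss of Bmpr2, Eng or Acvrl1 causes vascular disease of the lung, 3 of 21 genes rose and 5 fell (1 to 4 risen on leaving out 1 WT array). Smad6, an inhibitor that the pathway itself induces, read 10.43, 10.52 and 9.82 in WT hypoxia, against 12.02, 11.97 and 11.59 in WT normoxia. Eng, endoglin, the accessory receptor of endothelium, read 10.82, 11.15 and 10.51 in WT hypoxia, against 12.05, 12.49 and 11.86 in WT normoxia. Acvrl1, its partner receptor, read 9.39, 9.46 and 9.48 in WT hypoxia, against 9.90, 10.22 and 10.02 in WT normoxia. All 3 were lower on every hypoxia array, with changes of -1.61 ± 0.18 (SE), adjusted p = 0.000102, for Smad6, -1.30 ± 0.19 (SE), adjusted p = 0.000791, for Eng and -0.60 ± 0.12 (SE), adjusted p = 0.00886, for Acvrl1. Bmp6, a ligand, fell as well, with a change of -0.97 ± 0.15 (SE), adjusted p = 0.00136, and Bmpr2 changed by -0.66 ± 0.18 (SE), adjusted p = 0.0359, a call that was lost without WT hypoxia 2 or 3 or WT normoxia 2 or 3 and in 4 other settings (adjusted p up to 0.13). Fstl1, a secreted antagonist, read 11.30, 10.95 and 11.41 in WT hypoxia, against 9.88, 10.25 and 10.24 in WT normoxia. Id1, a direct target of the pathway, read 10.78, 10.80 and 10.88 in WT hypoxia, against 11.25, 11.00 and 10.76 in WT normoxia with overlap and did not pass.

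Of 19 genes of TGF-beta and activin signalling 4 rose and 1 fell (2 to 3 risen on leaving out 1 WT array). The ligand Tgfb2 read 11.09, 11.06 and 10.92 in WT hypoxia, against 9.87, 9.88 and 10.38 in WT normoxia, and the ligand Tgfb3 rose by 0.67 ± 0.13 (SE), adjusted p = 0.00543. The coreceptor Tgfbr3 read 10.75, 10.89 and 10.66 in WT hypoxia, against 11.91, 11.35 and 11.48 in WT normoxia, below room air on every array.

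Notch signalling, by which neighbouring cells settle arterial and mural fate, had 6 of 16 measured genes lower and 2 higher, with a median of -0.42 (5 to 8 lower on leaving out 1 WT array). Hey1, a target gene of endothelium, read 11.09, 11.18 and 11.02 in WT hypoxia, against 12.29, 12.38 and 12.57 in WT normoxia. Dll4, the ligand of arterial and tip cells, read 5.50, 5.54 and 5.42 in WT hypoxia, against 6.51, 6.22 and 7.16 in WT normoxia, and the target Hes1 read 9.37, 9.42 and 9.76 in WT hypoxia, against 10.14, 10.44 and 10.30 in WT normoxia. The receptors Notch1 and Notch4 fell too, with changes of -0.64 ± 0.13 (SE), adjusted p = 0.00692, and -0.69 ± 0.15 (SE), adjusted p = 0.0119. Notch3, the receptor of mural cells, went the other way and read 10.04, 10.17 and 9.92 in WT hypoxia, against 9.02, 9.25 and 9.28 in WT normoxia, each hypoxia array above each normoxia array. Heyl, a target gene of mural cells, rose by 0.68 ± 0.18 (SE), adjusted p = 0.0279, a call lost without WT hypoxia 1, 2 or 3 or WT normoxia 1 or 2 (adjusted p up to 0.119).

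Of 28 Wnt genes 6 rose and 1 fell (4 to 10 risen on leaving out 1 WT array, with 10 when WT normoxia 3 was the one). Sfrp4, a secreted antagonist, read 7.47, 8.82 and 9.23 in WT hypoxia, against 5.38, 5.86 and 6.23 in WT normoxia, without overlap but with WT hypoxia 1 far below the other 2. Sfrp1, of the same family, read 9.24, 8.60 and 8.26 in WT hypoxia, against 7.37, 7.55 and 7.47 in WT normoxia. Wnt2, a ligand of lung mesenchyme, read 10.58, 10.67 and 10.77 in WT hypoxia, against 9.28, 9.53 and 10.22 in WT normoxia, and the ligand Wnt5a rose by 0.77 ± 0.16 (SE), adjusted p = 0.0095. The receptor Fzd4 read 7.24, 7.21 and 7.24 in WT hypoxia, against 8.27, 8.18 and 8.02 in WT normoxia, the 1 fall of the list. A dimmer probe of Fzd4 changed by -0.70 and did not pass.

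Of 31 angiogenic factors and receptors 4 rose and 3 fell (2 to 5 risen on leaving out 1 WT array). Vegfc and Vegfd, which act on lymphatic vessels, read 10.99, 10.97 and 10.82 in WT hypoxia, against 9.54, 9.90 and 9.67 in WT normoxia for Vegfc and 11.90, 11.98 and 11.87 in WT hypoxia, against 11.26, 11.20 and 10.85 in WT normoxia for Vegfd. Both lay above room air on every array, with changes of 1.22 ± 0.14 (SE), adjusted p = 0.000144, for Vegfc and 0.81 ± 0.14 (SE), adjusted p = 0.00313, for Vegfd. Kdr and Flt1, receptors of Vegfa, changed by 0.22 and -0.34 and did not pass. Angptl4, an inhibitor of lipoprotein lipase, read 10.80, 10.98 and 10.58 in WT hypoxia, against 12.36, 12.28 and 11.54 in WT normoxia. Angpt2, which loosens endothelial contacts, changed by 0.72 ± 0.20 (SE), adjusted p = 0.0353, and its call was lost without WT hypoxia 1, 2 or 3 or WT normoxia 1 or 2 and in 2 other settings (adjusted p up to 0.14). A dimmer probe of Angpt2 changed by 0.31 and did not pass. Igf1, insulin-like growth factor 1, read 8.58, 8.31 and 7.98 in WT hypoxia, against 6.76, 7.27 and 7.05 in WT normoxia, higher on every hypoxia array.

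Endothelial markers did not move as one. Of 27 general markers 7 fell and 2 rose, with a median of -0.21 (4 to 7 fallen on leaving out 1 WT array). Plvap, which forms the diaphragms of capillary pores, read 11.75, 11.86 and 11.53 in WT hypoxia, against 13.30, 13.30 and 13.33 in WT normoxia. Tmem100, a target of BMP receptors, read 13.63, 13.52 and 13.64 in WT hypoxia, against 14.41, 14.57 and 14.55 in WT normoxia. Emcn, endomucin, rose instead and read 12.76, 12.64 and 12.83 in WT hypoxia, against 11.53, 11.32 and 11.61 in WT normoxia. The changes were -1.59 ± 0.13 (SE), adjusted p = 1.02e-05, for Plvap, -0.91 ± 0.13 (SE), adjusted p = 0.000743, for Tmem100 and 1.26 ± 0.12 (SE), adjusted p = 2.32e-05, for Emcn. Cdh5, the cadherin of endothelial junctions, read 10.13, 10.49 and 9.98 in WT hypoxia, against 10.48, 10.60 and 10.29 in WT normoxia and did not pass. Among 13 genes of capillary subsets 6 fell and 2 rose, with a median of -0.52 against 0.0 over all genes (0 to 2 risen on leaving out 1 WT array). The mean of this list stood at -0.34, -0.20 and -0.18 on the WT hypoxia arrays, against 0.30, 0.18 and 0.23 on the WT normoxia arrays, relative to each gene's WT mean.

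Of 10 venous markers 4 fell and 0 rose (2 to 3 fallen on leaving out 1 WT array), led by Slc6a2 and by Lyve1, a receptor of hyaluronan found on lymphatic vessels, veins and some macrophages, which read 12.45, 12.43 and 12.61 in WT hypoxia, against 14.65, 14.50 and 14.24 in WT normoxia and changed by -1.97 ± 0.14 (SE), adjusted p = 4.55e-06. Of the lymphatic genes others rose: of 9 measured, 4 were higher and Lyve1 alone was lower. Ccl21a, the chemokine that draws lymphocytes into lymphatics and whose near-identical copies a probe cannot tell apart, read 12.97, 12.71 and 12.89 in WT hypoxia, against 11.22, 11.31 and 11.37 in WT normoxia. Reln, reelin, read 9.67, 9.44 and 9.68 in WT hypoxia, against 8.55, 8.83 and 8.71 in WT normoxia. Prox1, the defining transcription factor of lymphatic endothelium, changed by 0.52 and did not pass. Among 13 arterial markers 2 rose and 4 fell: Cxcl12, a chemokine of vessel walls, read 14.64, 14.45 and 14.39 in WT hypoxia, against 12.80, 13.10 and 13.23 in WT normoxia. Gja4, a gap junction protein, rose by 0.71 ± 0.13 (SE), adjusted p = 0.00313, while Efnb2, an ephrin of arteries, changed by -0.97 ± 0.16 (SE), adjusted p = 0.00176.

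**Figure D4:**
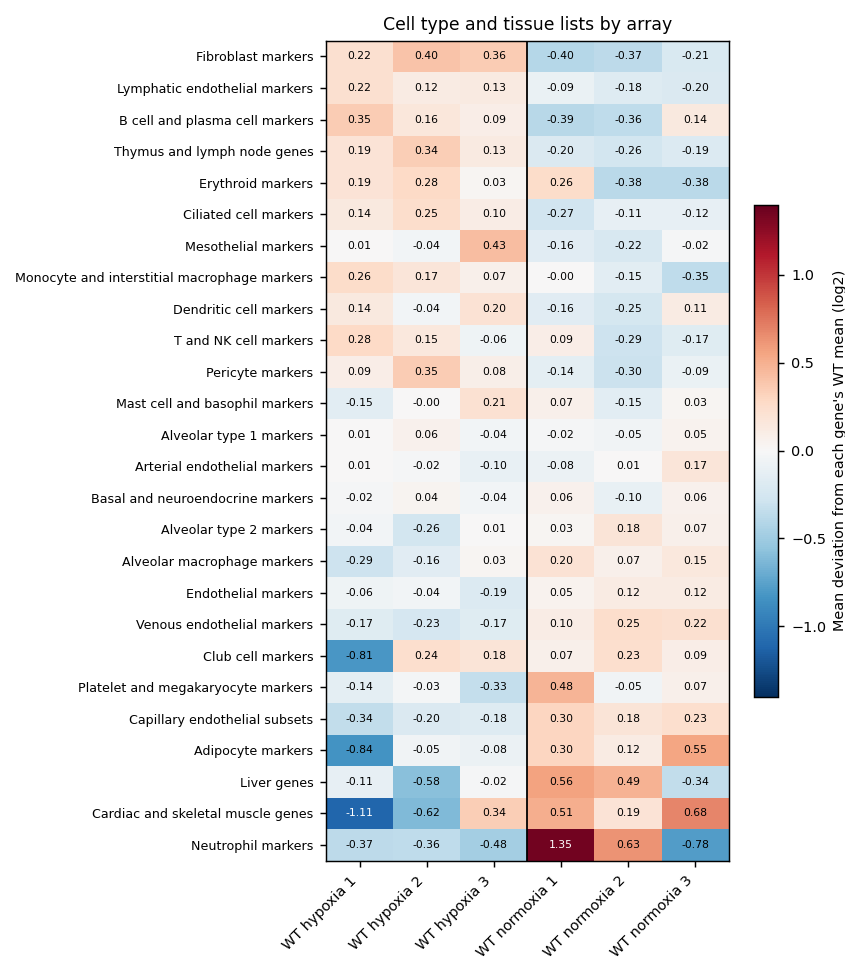
Mean deviation of each list of genes (down the page) from the genes' own means over the 6 WT arrays, for each array, in log2 units, with WT hypoxia arrays left and WT normoxia arrays right. The lists shown are those of cell types and tissues. The fibroblast list is high on all 3 hypoxia arrays, and the neutrophil list is high on WT normoxia 1 and 2 and low on WT normoxia 3.

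Chemokines were among the inflammatory genes that rose. Of 17 CC chemokines and receptors 5 rose and 0 fell, and of 18 CXC ones 7 rose and 2 fell (4 to 8 risen on leaving out 1 WT array). Ccl8 and Ccl7, attractants of monocytes, read 10.55, 10.71 and 10.04 in WT hypoxia, against 7.42, 7.50 and 7.16 in WT normoxia for Ccl8 and 9.37, 8.28 and 8.41 in WT hypoxia, against 6.47, 7.57 and 6.38 in WT normoxia for Ccl7. The groups were apart in both, with changes of 3.08 ± 0.23 (SE), adjusted p = 7.33e-06, for Ccl8 and 1.88 ± 0.37 (SE), adjusted p = 0.00632, for Ccl7. Ccl2, the best known attractant of monocytes, read 6.92, 6.62 and 5.83 in WT hypoxia, against 5.20, 5.64 and 4.73 in WT normoxia, dim on all arrays and without overlap. Cxcl9 and Cxcl10, which interferon gamma induces and which draw T cells, changed by 2.10 ± 0.44 (SE), adjusted p = 0.00873, and by at least 2.48-fold. Cxcl9 read 8.66, 7.50 and 6.38 in WT hypoxia, against 5.66, 5.63 and 4.96 in WT normoxia, and its hypoxia arrays spread over more than 2 log2 units. Cxcl5, an attractant of neutrophils, read 9.01, 7.98 and 6.32 in WT hypoxia, against 5.47, 5.95 and 4.95 in WT normoxia, and its rise was lost with the 6 WT arrays fitted alone (adjusted p up to 0.0502).

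Il6, the cytokine that drives the acute phase, was detected on no normoxia array and read 7.68, 6.99 and 6.87 in WT hypoxia, against 5.05, 5.33 and 5.01 in WT normoxia. It was at least 3.32-fold higher under hypoxia (adjusted p = 0.000136), the only rise among 32 measured cytokines and NF-kB targets, of which 4 fell (1 to 6 on leaving out 1 WT array). Il6ra, a receptor chain for it, read 6.21, 6.44 and 6.30 in WT hypoxia, against 8.03, 7.97 and 6.89 in WT normoxia, lower on every hypoxia array. Il4 read 7.64, 7.28 and 7.25 in WT hypoxia, against 8.26, 8.13 and 7.67 in WT normoxia, and its change of -0.63 ± 0.22 (SE), adjusted p = 0.0888, did not pass, although it passed in 3 of 18 alternatives (adjusted p from 0.0339 to 0.263 over all 18), among them the one without WT normoxia 3. Il13, the sister cytokine, read 5.72, 5.69 and 5.87 in WT hypoxia, against 5.42, 5.83 and 5.53 in WT normoxia and did not pass either. Of 18 genes of the type 2 response 3 rose and 0 fell, and the adhesion genes Icam1, Vcam1 and Selp changed by 0.05, 0.31 and 0.57, none of them passing. Arg1, Chil3 and Hmgb1 changed by 0.41, -0.08 and -0.14 and did not pass either, although Arg1 passed with the liver level as a covariate.

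Of 33 genes of the acute phase and of secreted defence 7 rose and 2 fell (4 to 7 risen on leaving out 1 WT array). Ltf, lactoferrin, which binds iron in secretions and neutrophil granules, read 12.61, 13.25 and 13.08 in WT hypoxia, against 9.07, 10.10 and 8.55 in WT normoxia, higher on every hypoxia array, with a change of 3.74 ± 0.78 (SE), adjusted p = 0.00886. Of 14 complement genes 5 rose and 0 fell. C1qa, C1qb and C1qc, the chains of C1q, which tissue macrophages make, rose by 0.78 ± 0.16 (SE), adjusted p = 0.00716, by 1.19 ± 0.16 (SE), adjusted p = 0.000347, and by 1.16 ± 0.18 (SE), adjusted p = 0.00138. Cfb, factor B of the alternative pathway, read 12.77, 12.50 and 11.80 in WT hypoxia, against 11.34, 10.89 and 11.14 in WT normoxia. Vsig4, a complement receptor of resident macrophages, was detected on no normoxia array and was at least 3.9-fold higher, and Fcna, a ficolin that macrophages secrete, read 7.45, 7.90 and 8.66 in WT hypoxia, against 5.55, 5.59 and 5.70 in WT normoxia.

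Of 21 markers of monocytes and interstitial macrophages 8 rose, 2 fell and 11 did not pass, with a median of 0.23. Over all genes 7.54% rose and 4.17% fell. The genes given next, Trem2, Folr2 and Ms4a7, are among those that rose. Trem2, a lipid-sensing receptor, read 8.64, 8.55 and 8.06 in WT hypoxia, against 6.84, 6.61 and 6.65 in WT normoxia, a change of 1.72 ± 0.16 (SE), adjusted p = 2.8e-05. Folr2, a folate receptor of perivascular macrophages, read 7.27, 7.58 and 7.72 in WT hypoxia, against 5.78, 5.62 and 6.03 in WT normoxia, and Ms4a7 rose by 1.69 ± 0.25 (SE), adjusted p = 0.000868. Of 14 alveolar macrophage markers 0 rose and 3 fell, and Marco, a scavenger receptor of those cells, read 7.11, 7.48 and 7.73 in WT hypoxia, against 7.14, 6.72 and 7.62 in WT normoxia and did not pass.

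Neutrophil genes were 7 lower and 1 higher of 17 measured, with a median of -1.01, the 1 rise being that of Ltf, and leaving out single arrays moved the count. S100a8, a subunit of calprotectin, read 12.22, 12.41 and 12.41 in WT hypoxia, against 15.52, 14.82 and 12.66 in WT normoxia. Cxcr2, the chemokine receptor of neutrophils, read 6.20, 6.34 and 6.42 in WT hypoxia, against 10.10, 9.05 and 6.65 in WT normoxia. WT normoxia 3 lay beside the hypoxia arrays in both. S100a9, the other subunit of calprotectin, changed by -2.01 ± 0.57 (SE), adjusted p = 0.0403, a call lost without WT hypoxia 1, 2 or 3 or WT normoxia 1 or 2 and in 4 other settings (adjusted p up to 0.139). Clec4d, a lectin receptor of myeloid cells, changed by -2.25 ± 0.63 (SE), adjusted p = 0.0384, a call lost without WT hypoxia 1, 2 or 3 or WT normoxia 1 or 2 and in 4 other settings (adjusted p up to 0.138). The mean of the list was -0.37, -0.36 and -0.48 on the WT hypoxia arrays, against 1.35, 0.63 and -0.78 on the WT normoxia arrays, relative to each gene's WT mean. On leaving out 1 WT array the number fallen was 11 without WT normoxia 3 and 0 without any of the other 5. The calls were lost without WT hypoxia 1, 2 or 3 or WT normoxia 1 or 2 and in 4 other settings (adjusted p up to 0.112) for S100a8 and lost without WT hypoxia 1, 2 or 3 or WT normoxia 1 or 2 and in 3 other settings (adjusted p up to 0.109) for Cxcr2.

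Lymphocyte genes gave few stable calls. Of 20 B cell and plasma cell markers 4 rose, with 0 to 9 on leaving out 1 WT array and the 9 reached without WT normoxia 3, and of 24 T and NK cell markers 3 rose (1 to 3 on leaving out 1 WT array). Thy1, found on T cells, fibroblasts and lymphatic endothelium, read 10.24, 10.11 and 9.79 in WT hypoxia, against 9.13, 8.64 and 9.05 in WT normoxia. Ccr7, the receptor that guides lymphocytes and dendritic cells to Ccl21, read 7.76, 7.74 and 7.77 in WT hypoxia, against 7.13, 6.64 and 7.17 in WT normoxia, above room air on every array. Of 35 interferon response genes 6 rose and 0 fell, and the number risen ran from 2 to 8 on leaving out 1 WT array, the lowest without WT hypoxia 1.

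Genes that glucocorticoids induce were lower. Of 23 measured 15 fell and 0 rose, with a median of -0.73, and without WT hypoxia 1 or WT normoxia 1 the number fallen was 8. Errfi1, a feedback inhibitor of growth factor receptors, read 13.13, 13.17 and 13.20 in WT hypoxia, against 14.21, 13.93 and 13.83 in WT normoxia. Sgk1, a kinase that steroid hormones induce, read 12.91, 12.79 and 12.74 in WT hypoxia, against 13.72, 13.52 and 13.24 in WT normoxia, and Map3k6 read 9.16, 9.82 and 9.72 in WT hypoxia, against 11.70, 11.09 and 10.49 in WT normoxia. Tsc22d3, the leucine zipper known as GILZ, changed by -0.70 ± 0.16 (SE), adjusted p = 0.0136, and its call was lost without WT hypoxia 1 or WT normoxia 1 and with the 6 WT arrays fitted alone (adjusted p up to 0.0609). Fkbp5, a classical glucocorticoid target, read 8.02, 8.52 and 8.82 in WT hypoxia, against 11.20, 9.66 and 8.96 in WT normoxia, with WT normoxia 1 far above the rest and a call lost without WT hypoxia 1, 2 or 3 or WT normoxia 1 or 2 and in 4 other settings (adjusted p up to 0.135). Nr3c1, the receptor itself, changed by -0.28 and did not pass.

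Of 24 immediate early genes 8 fell and 1 rose (4 to 8 fallen on leaving out 1 WT array). Fosb, a partner in the AP-1 factor, read 6.26, 6.59 and 6.54 in WT hypoxia, against 8.35, 7.78 and 7.96 in WT normoxia, and Jun read 9.64, 9.57 and 9.46 in WT hypoxia, against 10.37, 10.37 and 10.28 in WT normoxia, both lower on every hypoxia array. Fos read 9.86, 10.04 and 10.49 in WT hypoxia, against 11.69, 11.02 and 10.74 in WT normoxia, without overlap of the groups, and its call was lost without WT hypoxia 1 or 2 or WT normoxia 1 and with the 6 WT arrays fitted alone (adjusted p up to 0.0667). In the circadian clock Arntl, the activator also called Bmal1, read 8.21, 8.01 and 7.90 in WT hypoxia, against 9.42, 9.29 and 8.72 in WT normoxia. Cry2, a repressor, changed by -0.64 ± 0.12 (SE), adjusted p = 0.00521. Dbp, an output gene that the clock drives, read 12.51, 12.75 and 12.66 in WT hypoxia, against 11.20, 11.73 and 12.30 in WT normoxia, and its rise was lost without WT hypoxia 2 or 3 or WT normoxia 1 or 2 and with the 6 WT arrays fitted alone (adjusted p up to 0.0697). Per1, Per2, Nr1d1 and Clock changed by -0.30, -0.20, -0.02 and -0.18, and none passed.

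Heat shock chaperones were split, 4 of 20 higher and 4 lower. Hspa1a, the inducible chaperone of which a near-identical copy exists, read 11.19, 9.89 and 11.86 in WT hypoxia, against 8.98, 8.31 and 8.08 in WT normoxia. Dnajb1, its cochaperone, read 12.80, 12.37 and 12.92 in WT hypoxia, against 11.48, 11.37 and 11.29 in WT normoxia. Rbm3 and Cirbp, RNA-binding proteins that cooling induces, read 11.68, 11.79 and 11.71 in WT hypoxia, against 10.88, 10.38 and 9.83 in WT normoxia for Rbm3 and 8.90, 9.42 and 8.85 in WT hypoxia, against 8.28, 8.15 and 8.39 in WT normoxia for Cirbp. All 4 were higher on every hypoxia array, with changes of 2.53 ± 0.43 (SE), adjusted p = 0.00242, for Hspa1a and 1.36 ± 0.23 (SE), adjusted p = 0.00232, for Rbm3, whereas 2 further probes of Rbm3 changed by 0.38 and 0.39. Hspb1, a small heat shock protein, read 11.71, 11.52 and 11.68 in WT hypoxia, against 13.16, 13.68 and 13.02 in WT normoxia, below room air by more than 1 log2 unit on every pair of arrays, with a change of -1.65 ± 0.18 (SE), adjusted p = 9.29e-05. Of 22 chaperones of the endoplasmic reticulum 3 fell and 0 rose, with Creld2 at -1.02 ± 0.17 (SE), adjusted p = 0.00251, and Hspa5, the chaperone BiP, at -0.56 ± 0.12 (SE), adjusted p = 0.00975.

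Detoxifying enzymes were among the genes that fell. Of 33 antioxidant and Nrf2 target genes 8 fell and 0 rose. The glutathione transferase Gsta2 read 6.87, 7.67 and 7.39 in WT hypoxia, against 8.46, 8.48 and 8.69 in WT normoxia, and Gsta3 read 13.15, 13.29 and 13.70 in WT hypoxia, against 14.16, 14.28 and 14.11 in WT normoxia. Gpx2, a glutathione peroxidase of epithelium, changed by -0.62 ± 0.12 (SE), adjusted p = 0.00619. These transferases have near-identical relatives that a probe may also read. Hmox1, heme oxygenase, read 8.00, 8.11 and 7.70 in WT hypoxia, against 7.90, 7.60 and 7.60 in WT normoxia and did not pass. Of 10 aryl hydrocarbon receptor targets 3 fell (1 to 4 on leaving out 1 WT array), with Cyp1a1 the one that kept its call in every alternative, while Cyp1b1 changed by 0.46 and did not pass.

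The promoters of Cyp1a1 and Retnla are shown because these genes were among the largest falls and rises. Capitals mark GCGTG, the core that the aryl hydrocarbon receptor binds, and TATAAA, the TATA box, and the source and build are those given above.
Cyp1a1, chr9:57697463-57697612, plus strand: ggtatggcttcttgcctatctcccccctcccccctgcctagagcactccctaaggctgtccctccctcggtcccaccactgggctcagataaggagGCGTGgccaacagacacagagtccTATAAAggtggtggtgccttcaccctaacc
Retnla, chr16:48842459-48842608, plus strand: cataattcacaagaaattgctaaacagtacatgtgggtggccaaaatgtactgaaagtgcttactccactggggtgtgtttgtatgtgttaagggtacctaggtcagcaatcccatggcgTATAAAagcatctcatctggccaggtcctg
In Cyp1a1 GCGTG lay 54 bases and TATAAA 30 bases before the start, and in Retnla TATAAA lay 30 bases before it. GCGTG was in 44.6% of windows of the genes that rose, in 46.5% of those that fell and in 47.1% of all, and TATAAA in 10.4%, 12.3% and 8.5%.

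Calls among epithelial markers differed by list. Of 13 alveolar type 1 markers 2 rose, of 18 type 2 markers 1 fell, and of 16 club cell markers 4 fell (2 to 3 on leaving out 1 WT array). Over all genes 7.54% rose and 4.17% fell. Cyp2b10, a drug-metabolising enzyme of club cells, read 12.45, 12.74 and 12.57 in WT hypoxia, against 13.43, 13.38 and 13.32 in WT normoxia. The club list was low on WT hypoxia 1 alone, with means of -0.81, 0.24 and 0.18 on the WT hypoxia arrays, against 0.07, 0.23 and 0.09 on the WT normoxia arrays relative to each gene's WT mean, and the part of this array in the calls was followed only by leaving it out.

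Some genes known for the building of many cilia in 1 cell were picked because they rose, after their values had been seen, so nothing is said of such genes as a group. Deup1, the scaffold on which centrioles multiply in such cells, was detected on no normoxia array, read 7.73, 7.55 and 7.21 in WT hypoxia, against 4.86, 4.95 and 4.91 in WT normoxia and was at least 4.12-fold higher. Ccno, a cyclin needed for the same step, read 10.56, 10.60 and 10.17 in WT hypoxia, against 7.98, 8.01 and 7.62 in WT normoxia. Mcidas, the coactivator that starts the programme, read 6.57, 6.50 and 6.56 in WT hypoxia, against 4.62, 4.77 and 4.70 in WT normoxia, at least 2.13-fold higher. Foxn4 was at least 1.95-fold higher, and Myb, which acts in the same cells and in blood progenitors, rose by 1.30 ± 0.24 (SE), adjusted p = 0.00391. Foxj1, the master regulator of motile cilia, read 7.04, 7.09 and 6.93 in WT hypoxia, against 6.91, 6.87 and 6.93 in WT normoxia and did not pass. Of 15 markers of ciliated cells 4 rose and 0 fell (1 to 4 risen on leaving out 1 WT array), with Dnali1, a dynein chain, at 0.98 ± 0.17 (SE), adjusted p = 0.00267.

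Markers of other tissues were followed for the same arrays. Of 27 liver genes and 12 platelet genes, as of 10 erythroid genes, 0 passed under limma. The liver list averaged -0.11, -0.58 and -0.02 on the WT hypoxia arrays, against 0.56, 0.49 and -0.34 on the WT normoxia arrays relative to each gene's WT mean, so WT normoxia 1 and 2 carried more of these transcripts than the other 4 arrays. With the liver level as a covariate 1709 probes were called, against 1770 without it.

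The change was then set beside that of the Il4 knockout, whose animals and arrays are separate but share the normalization and the estimate of spread. The Il4 probe read 5.86, 5.37 and 5.58 in KO hypoxia, against 5.72, 4.97 and 5.63 in KO normoxia, lower on every KO array than on every WT array. Of the 832 genes that rose in WT lung 712 had a change of the same sign in KO lung, and of the 460 that fell 382 did. The share of like signs over all genes tested was not computed, so these counts stand without a background. The liver level was 3.317, 1.704 and 1.167 on the KO normoxia arrays, against -0.44, 0.152 and 0.315 on the KO hypoxia arrays, relative to each gene's mean over the 12 lung arrays. Its part in these counts was not tested. Ntrk2 changed by 3.81 in WT and by 3.85 in KO, and Col1a1 by 2.45 in WT and by 2.13 in KO. The difference between the 2 changes passed for 4 probes (0.0246%), or for 3 genes (0.0272%), under limma, with 1836 probes at an unadjusted p under 0.05. Eln was one of them: the change was 1.92 ± 0.13 (SE) in WT and 3.33 ± 0.13 (SE) in KO. Its KO values were 12.58, 12.44 and 12.77 in KO hypoxia, against 9.14, 9.34 and 9.33 in KO normoxia, so the hypoxia arrays of both genotypes reached a like level and the KO normoxia arrays lay lower than the WT normoxia arrays. The other 2 genes, named after their values were seen, were Fsip1, with changes of 0.97 in WT and -0.52 in KO, and Fhit, with 0.64 in WT and -0.85 in KO. The WT rise of Fhit was itself lost without WT hypoxia 2 or 3 or WT normoxia 1 or 2 (adjusted p up to 0.0771). The test of the difference passed in 10 of 17 alternatives for Eln, in 8 of 16 for Fsip1 and in 9 of 17 for Fhit, and it was lost for all 3 on leaving out any WT array other than WT normoxia 3.

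Several of the largest WT changes were smaller in KO lung without passing the test of the difference. Npr3 changed by -3.34 ± 0.26 (SE) in WT and by -0.90 ± 0.26 (SE) in KO, with an adjusted p of 0.0645 for the difference, and its KO arrays read 8.49, 8.95 and 8.44 in KO hypoxia, against 8.80, 9.63 and 10.14 in KO normoxia. Hspb1 changed by -1.65 in WT and by -0.09 in KO, and Cyp1a1 by -3.64 in WT and by -2.09 in KO, each with an adjusted p of 0.0733 for the difference. Hspb1 read 10.74, 11.05 and 11.30 in KO hypoxia, against 11.06, 11.295 and 11.02 in KO normoxia. Its KO normoxia arrays thus already lay below the WT normoxia arrays, at 13.16, 13.68 and 13.02. Cyp1a1 read 6.15, 5.85 and 5.88 in KO hypoxia, against 8.15, 7.99 and 8.01 in KO normoxia. Hspa1a changed by 2.53 in WT and by -0.38 in KO (adjusted p = 0.0838 for the difference).

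**Figure D5:**
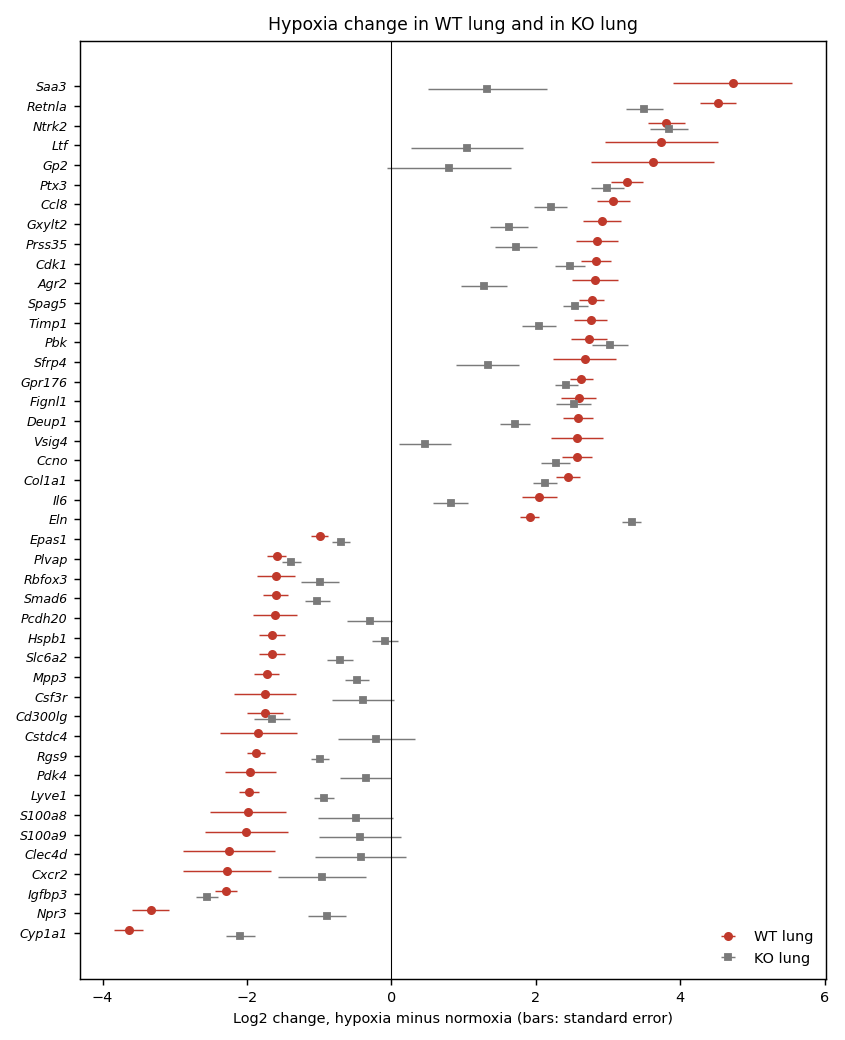
Log2 change under hypoxia with its SE for the 20 largest rises and 20 largest falls of WT lung and for Col1a1, Il6, Eln and Epas1, in WT lung (red circles, the upper mark of each pair) and in KO lung (grey squares). Since genes were picked for their WT change, WT marks tend to lie further out. Elastin is the 1 gene drawn whose difference passed the test.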

How the data were processed

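Total lung RNA of each animal was labelled with biotin and hybridised to Illumina MouseRef-8 arrays, per the labels' protocols, and the scanner data were handled in BeadStudio, per the submitters' processing notes, with no version given. The deposited raw table holds, per the file headers, an average signal (intensity) and a detection p-value for each probe and array. The authors also deposited a log2 table, which matched the log2 of the raw signals up to a shift of each array within 0.02 for 25697 of 25697 lung probes and was used as an alternative. Aligner and genome build are not given in the sources used here, nor is the chip each array sat on. All 18 columns of samples were mapped through their titles, 0 were left unmapped, and 0 of 15 pairs of WT arrays held identical values.

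The 12 lung arrays were corrected for background and quantile normalized together with neqc of limma 3.58.1 in R 4.3.3 (offset 16, background fitted from the detection p-values), and the log2 values were tested. The test took in the 16251 probes that 3 or more of the 6 WT arrays detected, at a detection p under 0.05. One linear model over the 4 lung groups (8 residual and 4.63 prior degrees of freedom) gave the hypoxia change in WT, that in KO and their difference, by limma's moderated test, with Benjamini-Hochberg adjustment over all probes tested and a threshold of 0.05. A gene was read by its tested probe of highest mean, so a gene's brightest probe can hide another that differs. The platform annotation gave 1 symbol for 23978 probes and none for 1719, with several for 0, and 989 probes tested had no symbol. A probe detected on no array of a group has only an upper bound there, so its fold is given as "at least", from the dimmest detected level. The number of arrays limits the precision. Lists were summarised in Python 3.11.15 with pandas 2.3.3. After the fit, the test was also run on simulated data that took their spread from it.

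Named were the 20 largest rises and 20 largest falls among genes that passed without overlap of the groups, up to 4 members of each list that moved, and a set of fixed genes. Further genes were named after their values were seen. The members and lists were chosen with earlier results of these data known, so their counts are descriptions. Certain genes are not reported here. Alternatives were other normalizations, offsets, filters, arrays, weights, spread estimates, a liver covariate and each WT array left out. Promoter sequences came from RefSeq on GRCm38.p6, and none of its coordinates was set against the arrays.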

Additional observations from a re-analysis of the deposited data

Results flagged for a closer look

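A gene is given here because its hypoxia change differed between WT and KO lung by a test of the difference itself. For elastin (Eln) the WT change minus the KO change was -1.41 ± 0.19 (SE, log2, adjusted p = 0.035 by limma), with changes of 1.92 in WT and 3.33 in KO. For Fsip1, named for its binding to a sheath protein of sperm, the difference was 1.49 (adjusted p = 0.035), with changes of 0.97 in WT and -0.52 in KO. For Fhit, a diadenosine triphosphate hydrolase, it was 1.48 (adjusted p = 0.0469), with changes of 0.64 in WT and -0.85 in KO. Over the alternatives the difference of Eln ran from -1.5 to -1.3 with adjusted p from 0.00197 to 0.194, that of Fsip1 from 0.8 to 1.53 with adjusted p from 0.0188 to 0.194, and that of Fhit from 1.26 to 1.56 with adjusted p from 0.0132 to 0.195. All 3 lost the call with no filter on dim probes, with the liver covariate, and without WT hypoxia 1, 2 or 3 or WT normoxia 1 or 2. Fsip1 also lost it in the authors' deposited log2 table, and Fhit with detection on at least 3 of the 12 lung arrays.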

How the results depend on the processing

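Of 1770 probes called, the 6 WT arrays fitted alone gave 1147, and leaving out 1 WT array gave 1000 to 2292, the lowest without WT normoxia 2 and the highest without WT normoxia 3, while the other settings stayed within 1.5 times. Of the 1147, 1089 were also among the 1770, as were 1557 of the 2292. Higher probes, 1069, numbered 652 to 1281 on leaving out 1 WT array. Lower probes, 701, numbered 426 in the WT arrays alone, 459 in the authors' deposited log2 table, 1112 with array weights and 348 to 1011 on leaving out 1 WT array. The share of higher probes was 60.4%, and 70.8% in the authors' table (1111 higher, 459 lower). The 4 probes whose change differed between genotypes became 76 with no background correction, 9 with a median shift, 38 in the authors' table, 70 with an offset of 50, 0 with no filter, 176 with array weights, 125 with trended and robust spread, 0 with the liver covariate and 0 to 193 on leaving out 1 WT array. The cause was not tested. None of the called genes followed changed sign. Over the settings 12 of the 394 genes followed, 0 of them called, had changes on both sides of 0, among them Hif1a, Lox, Nos3, Pecam1 and Car9, and list medians near 0 crossed it too, such as that of other HIF targets (-0.04 to 0.09) and of the type 2 response (-0.02 to 0.09) on leaving out 1 WT array.

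Of 353 called genes followed, 224 kept the call in every setting and 129 lost it in at least 1. The setting without WT hypoxia 1 lost the most, 102, and 6 genes that had not passed did so in at least 1 setting. No paired analysis was possible because the labels give the WT hypoxia and WT normoxia arrays no shared replicate numbers. Dim probes limit the folds of genes undetected in 1 group.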

Other observations

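Where several tested probes read 1 gene, they did not always move together. Of 2968 genes with more than 1 tested probe, 457 had at least 1 probe called, and in 131 all were called the same way. In 1 gene, Ppp2r5c, a regulatory subunit of protein phosphatase 2A, probes were called in opposite directions, with changes of -0.64, 0.69 and 0.04.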
